A study of Mus musculus with 2 samples.

Results

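The mitochondrial ribosomal proteins were taken as the protein-coding genes whose GENCODE symbol is Mrpl or Mrps followed by a number. Matching gene identifiers without their version found 77 such genes, 48 Mrpl and 29 Mrps, among the 43346 genes of the hindbrain tables. Total RNA was sequenced from the hindbrain of B6NCrl mouse embryos at 14.5 days of gestation, the region that forms cerebellum, pons and medulla. Each of the 2 libraries was made from 10 ng of RNA longer than 200 nt with spike-in RNAs added. Both belong to 1 group, untreated embryonic hindbrain, labelled biological replicates 1 and 2. The labels describe each sample as a single hindbrain of a pup, with a different collection date for each replicate. They also give the sex of each sample as pooled and the same donor identifier to both, so date and replicate cannot be told apart, and any difference between the libraries may be technical.

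Mitochondria carry their own ribosome, which translates the few messenger RNAs encoded in mitochondrial DNA, all for subunits of the oxidative phosphorylation complexes. Its ribosomal RNAs come from mitochondrial DNA, while its proteins are encoded in the nucleus, made in the cytosol and imported. Many of these proteins descend from bacterial ribosomal proteins, and others were added in the mitochondrial lineage. The large subunit forms peptide bonds, and the small subunit binds messenger RNA and decodes it.

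All 77 genes reached at least 1 TPM (transcripts scaled for length, as a share of the whole library) in both libraries. By mean TPM they lay between percentiles 63.7 and 97.2 of 21474 protein-coding genes, with a median percentile of 89.0. The median of 13622 protein-coding genes with at least 1 TPM was 19.3 TPM, and 75 of the 77 members lay above it. The annotation of symbols holds 78 genes of this pattern. The remaining one, Mrpl33, was not matched by gene identifier. The gene that holds the 1 transcript named Mrpl33 also holds 10 others; it had 148.8 TPM in replicate 2 and 169.4 TPM in replicate 1 and stays outside the counts. Of 9 genes listed as hindbrain markers 7 reached 1 TPM in both libraries, against 1 of 5 forebrain markers. The hindbrain markers summed to 373.8 TPM in replicate 2 and 394.4 TPM in replicate 1, and the lowest value was 0.05 TPM. The forebrain markers summed to 32.4 TPM in replicate 2 and 37.2 TPM in replicate 1, with a highest value of 37.15 TPM.

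Sequences around the start of transcription were matched in RefSeq (GRCm38.p6) for 68 of the 77 members, as windows from 250 bases before the annotated start to 50 bases after it. They were searched on both strands for short motifs: GCATGCGC for the nuclear respiratory factor NRF1, CCGGAAG for ETS-family factors, AAGATGG for YY1, CACGTG for the E-box and TATAAA for the TATA box. NRF1 and GABP, a member of the ETS family, are known as regulators of nuclear genes for mitochondrial proteins. The following 6 windows, from 150 bases before the start to 30 after it, show members with 2 of the 3 first motifs or a repeat of one, and Mrpl30, the member with the highest mean level, with none. Capitals mark matches to the NRF1, ETS and YY1 letters on either strand, and each is printed on the strand of its gene.
Mrpl58, chr11:115403602-115403781 (+): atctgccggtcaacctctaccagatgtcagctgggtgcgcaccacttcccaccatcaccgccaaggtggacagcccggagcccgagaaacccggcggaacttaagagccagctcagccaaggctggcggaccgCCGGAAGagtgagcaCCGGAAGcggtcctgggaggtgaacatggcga
Mrps18a, chr17:46110854-46111033 (+): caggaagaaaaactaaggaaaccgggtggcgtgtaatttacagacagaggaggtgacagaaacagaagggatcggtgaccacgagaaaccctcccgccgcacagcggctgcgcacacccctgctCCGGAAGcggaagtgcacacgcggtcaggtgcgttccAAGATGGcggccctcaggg
Mrpl22, chr11:58171514-58171693 (+): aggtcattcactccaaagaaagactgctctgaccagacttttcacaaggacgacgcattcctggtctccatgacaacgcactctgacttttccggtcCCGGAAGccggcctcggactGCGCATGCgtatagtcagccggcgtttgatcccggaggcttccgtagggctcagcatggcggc
Mrpl9, chr3:94443186-94443365 (+): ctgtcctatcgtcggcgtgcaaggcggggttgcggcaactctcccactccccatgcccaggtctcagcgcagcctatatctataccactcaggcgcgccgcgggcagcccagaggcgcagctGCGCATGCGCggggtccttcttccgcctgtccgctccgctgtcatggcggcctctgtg
Mrps27, chr13:99344636-99344815 (+): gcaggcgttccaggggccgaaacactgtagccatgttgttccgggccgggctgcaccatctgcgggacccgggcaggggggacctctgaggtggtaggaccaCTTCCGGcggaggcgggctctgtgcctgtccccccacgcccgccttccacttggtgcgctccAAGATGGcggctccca
Mrpl30, chr1:37890327-37890506 (+): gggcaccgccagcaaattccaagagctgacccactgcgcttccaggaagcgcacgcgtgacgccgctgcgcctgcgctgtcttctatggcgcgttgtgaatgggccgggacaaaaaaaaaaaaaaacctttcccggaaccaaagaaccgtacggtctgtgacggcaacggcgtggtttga

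Mrpl58, a peptidyl-tRNA hydrolase built into the large subunit, held the ETS letters in a pair of places near its start. Mrps18a and Mrps27 held both the ETS and the YY1 letters, Mrpl22 held the NRF1 and ETS letters, and Mrpl9 held the NRF1 letters on both strands as overlapping matches. Over all members with a window, the ETS letters were found in 25 of 68 (36.8%), against 13.5% of 16317 protein-coding genes. The YY1 letters were found in 13 members (19.1%), against 7.31% of protein-coding genes, and the NRF1 letters in 7 members (10.3%), against 4.14%. At least 1 of the 3 motifs stood in 37 members (54.4%), against 22.5% of protein-coding genes. The E-box letters were found in 5 members (7.35%), against 9.24% of protein-coding genes, and the TATA letters also in 5 (7.35%), against 14.1%. By subunit, the ETS letters stood in 14 of 42 large-subunit genes and 11 of 26 small-subunit genes. Members with the ETS letters had a median of 99.3 TPM, and those without had 53.7 TPM. For the NRF1 letters, found in 7 members, the order was the opposite, with 49.7 TPM with them and 74.3 TPM without. The YY1 medians were close, at 70.3 TPM with the letters and 73.8 TPM without. Levels were not compared for the E-box and TATA letters. Base composition and expression level were not matched between the sets, and all members reached 1 TPM. A match is a string of letters and not evidence of binding.

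**Figure D1:**
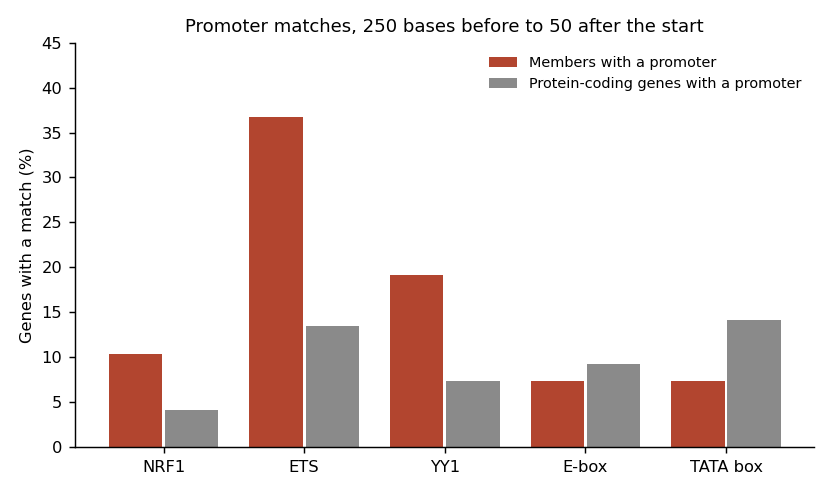
Share of genes (vertical axis, percent) with each set of letters in the promoter window, for the 68 members with a window (red, left bar of each pair) and for 16317 protein-coding genes (grey, right bar). Among the member bars the ETS bar is the tallest, at 36.8%, beside 13.5% of protein-coding genes.

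Members were spread over 17 chromosomes, and chromosome 11 held the most, 11 genes. A protein-coding gene started upstream on the opposite strand within 1000 bp for 18 of 77 members (23.4%), against 1489 of 21951 protein-coding genes (6.78%). The protein-coding genes here and below were not matched to the members for expression level. Mrps18c and Helq started 29 bp apart, Mrpl54 and Apba3 26 bp apart, and Mrps12 and Sars2, the mitochondrial seryl-tRNA synthetase, 172 bp apart. Counting starts that overlap as well, a wider definition chosen after the values were seen, gave 33 members (42.9%), against 10.9% of protein-coding genes. Under it 1 pair joined both subunits, Mrpl46 (chr7:78775236-78783531, minus strand) and Mrps11 (chr7:78783119-78792989, plus strand). Their outermost gene bounds in GENCODE M21 overlap by 412 bp at the 5′ ends. The RefSeq starts used for the promoter windows of this pair do not overlap. Mrpl46 stood at 48.1 TPM in replicate 2 and 50.1 TPM in replicate 1, and Mrps11 at 50.8 TPM in replicate 2 and 52.4 TPM in replicate 1. Exons of 32 members overlap an exon of another gene, 28 on the opposite strand and 7 on the same strand. The strand setting of the authors' quantification is not given in the sources used here, so reads in these overlaps, the Mrpl46 and Mrps11 pair included, may belong to either gene.

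Member levels covered a 15.2-fold range, with a median of 71.0 TPM in replicate 2 and 69.0 TPM in replicate 1. The middle 50% of members lay between 46.7 and 110.4 TPM by their mean. Together the 77 genes made up 0.771% of protein-coding TPM in replicate 2 and 0.835% in replicate 1. The order of the members was shared between the libraries, with Pearson's r of 0.991 and Spearman's rho of 0.989 across the 77 genes, which share both libraries and are not independent. All 10 lowest members of one replicate were among the 10 lowest of the other, and 8 of the 10 highest were shared. The coefficient of variation between the replicates had a median of 4.96%, with 0.345% for Mrpl48 and 17.9% for Mrps33 as the ends of the range.

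In the large subunit the highest mean level belonged to Mrpl30, with 209.0 TPM in replicate 2 and 244.0 TPM in replicate 1. Mrpl20, a protein of the large-subunit core with a bacterial counterpart, had 215.7 TPM in replicate 2 and 211.5 TPM in replicate 1. Mrpl42 had 200.4 TPM in replicate 2 and 224.4 TPM in replicate 1. These first 3 and Mrpl52, the next, overlap across the libraries, so their order is not resolved. Mrpl52, a mitochondria-specific protein, had 167.9 TPM in replicate 2 and 211.6 TPM in replicate 1, and Mrpl58 had 158.3 TPM in replicate 2 and 176.1 TPM in replicate 1. At the low end Mrpl1, the protein of the L1 stalk, had 15.3 TPM in replicate 2 and 14.5 TPM in replicate 1. Mrpl35 had 14.6 TPM in replicate 2 and 16.1 TPM in replicate 1, so the lowest 2 members change places between libraries. Mrpl47 came next at 24.5 ± 2.10 TPM, followed by Mrpl45, which lies near the exit of the peptide tunnel, at 28.0 ± 2.99 TPM and Mrpl11, of the stalk base, at 29.7 ± 0.70 TPM (SD, n = 2 for each).

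In the small subunit Mrps21 was the highest, with 207.8 TPM in replicate 2 and 234.9 TPM in replicate 1. Mrps6 had 167.9 TPM in replicate 2 and 175.5 TPM in replicate 1. Mrps24, the counterpart of the bacterial protein at the messenger RNA entry, had 149.0 TPM in replicate 2 and 175.2 TPM in replicate 1. Mrps33 and Mrps17 followed, at 155.3 ± 27.8 and 139.3 ± 6.77 TPM (SD, n = 2), and their values overlap those of Mrps24 or of each other. The lowest was Mrps9 with 26.4 TPM in replicate 2 and 22.0 TPM in replicate 1. Mrps31 stood at 27.0 ± 1.96 TPM, Mrps27, a pentatricopeptide repeat protein, at 30.3 ± 1.17 TPM, Mrps35 at 39.1 ± 1.13 TPM and Mrps2 at 40.4 ± 2.06 TPM (SD, n = 2 for each). No small-subunit gene lay as low as Mrpl1 and Mrpl35 in either library.

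**Figure D2:**
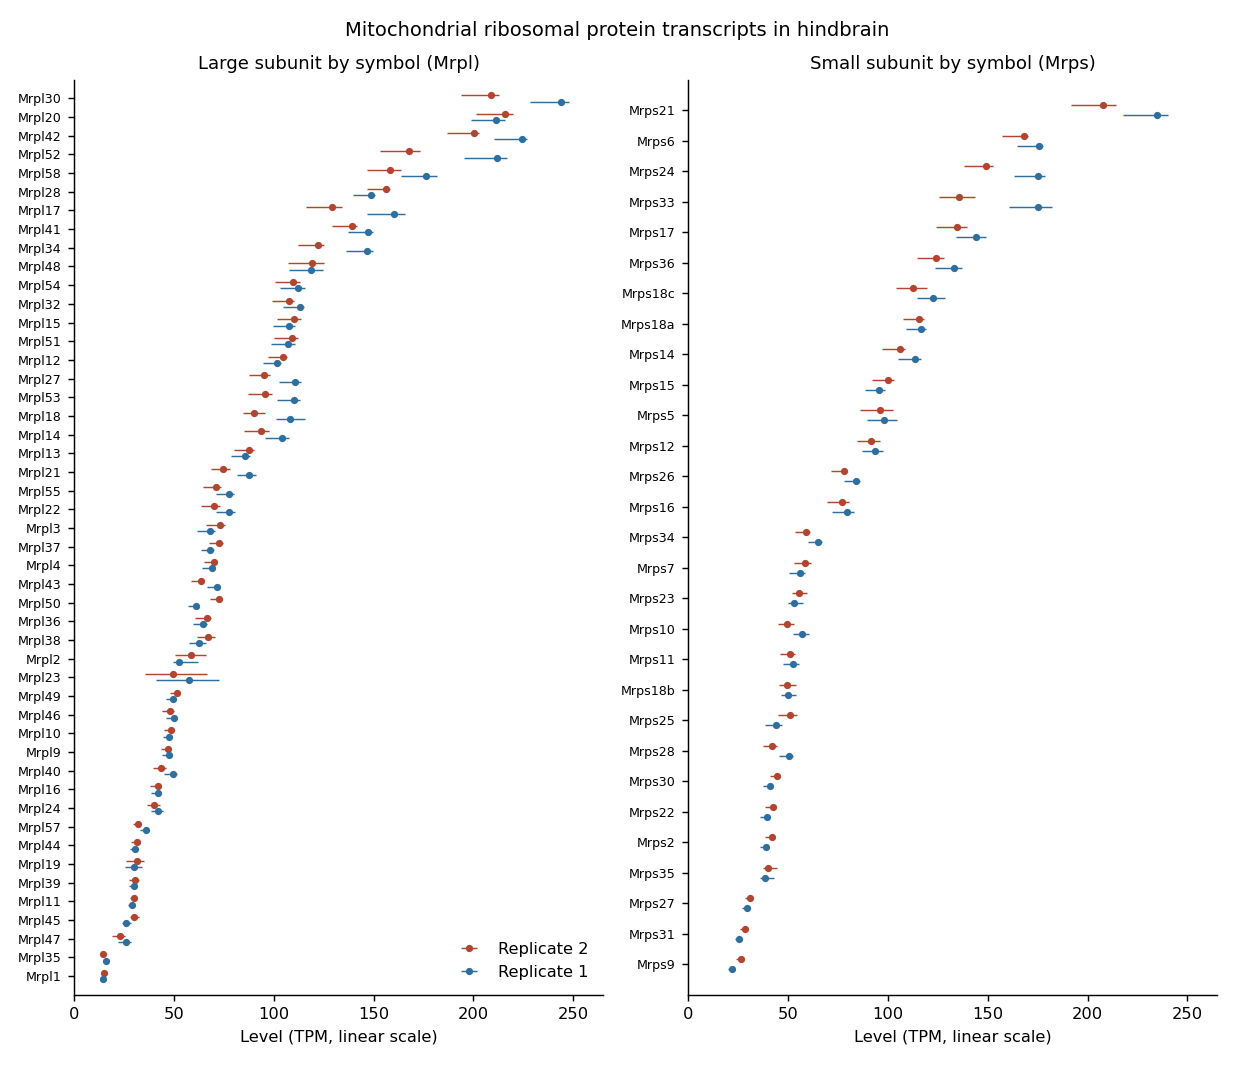
Level of each member (horizontal axis, TPM on a linear scale) in replicate 2 (red) and replicate 1 (blue), for large-subunit genes (left panel) and small-subunit genes (right panel) in order of their mean; horizontal lines are the deposited credibility bounds. Levels run between 14.9 TPM for Mrpl1 and 226.5 TPM for Mrpl30, and the 2 replicates lie close together relative to that range.

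Some symbols do not tell the place in the ribosome. Mammals have a trio of Mrps18 paralogs, and known structures place Mrps18c in the bacterial S18 position and Mrps18b elsewhere in the small subunit, while Mrps18a and Mrps30 belong to the large subunit. Mrps18c had 112.5 TPM in replicate 2 and 122.7 TPM in replicate 1, Mrps18a had 115.4 TPM in replicate 2 and 116.5 TPM in replicate 1, and Mrps18b had 49.3 TPM in replicate 2 and 50.1 TPM in replicate 1. Mrps18b was thus the lowest of the paralogs in both libraries, with no overlap. Mrps30 stood at 42.7 ± 2.45 TPM. Mrps36, a subunit of the oxoglutarate dehydrogenase complex and not of the ribosome, stood at 128.7 ± 6.39 TPM (SD, n = 2 for each).

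Levels of the large and the small subunit were close, and the direction of their difference depended on the summary used. The median was 71.8 TPM for Mrpl genes and 58.8 TPM for Mrps genes in replicate 2, and 70.3 TPM for Mrpl genes and 65.2 TPM for Mrps genes in replicate 1. On the log2(TPM + 1) scale the median of the large subunit exceeded that of the small subunit by 0.20 ± 0.12 (SD, n = 2), with 0.28 in replicate 2 and 0.11 in replicate 1. Taking the mean in place of the median turned the sign, to -0.01 ± 0.02. Grouping by place in the ribosome gave 0.24 ± 0.06, and adding the 5 structural proteins with other symbols brought it to 0.0047 ± 0.089. No p is given, since genes are not replicates. Within the small subunit by place, the 16 proteins with a bacterial counterpart had a median of 93.7 TPM in replicate 2 and 94.5 TPM in replicate 1, and the 10 mitochondria-specific proteins had 50.2 TPM in replicate 2 and 46.9 TPM in replicate 1. In the large subunit the same medians were 71.0 TPM in replicate 2 and 77.5 TPM in replicate 1 for 29 proteins with a bacterial counterpart, and 72.5 TPM in replicate 2 and 68.0 TPM in replicate 1 for 21 mitochondria-specific proteins. The classes overlap widely in both subunits.

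The structural proteins outside the symbol pattern lay in the same range. Chchd1, a small-subunit protein, had 139.1 TPM in replicate 2 and 156.3 TPM in replicate 1. Dap3, the GTP-binding protein of the small subunit, stood at 97.7 ± 4.38 TPM, Aurkaip1 at 96.2 ± 5.00 TPM and Ptcd3, a pentatricopeptide repeat protein, at 57.2 ± 3.22 TPM. Gadd45gip1, of the large subunit, was the lowest of the 5 at 29.0 ± 0.926 TPM (SD, n = 2 for each). The ribosomal RNA of the large subunit, mt-Rnr2, had 4678 TPM in replicate 2 and 5098 TPM in replicate 1, and that of the small subunit, mt-Rnr1, had 1674 TPM in replicate 2 and 2173 TPM in replicate 1. Their ratio, large over small, was 2.79 in replicate 2 and 2.35 in replicate 1.

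Lists of genes that serve the mitochondrial ribosome had lower median levels than its proteins. For 14 measured translation factors the median was 23.8 TPM in replicate 2 and 24.5 TPM in replicate 1. The highest were Tufm, the elongation factor Tu, at 98.3 ± 12.9 TPM, its exchange factor Tsfm at 49.9 ± 4.0 TPM and Guf1 at 36.6 ± 3.35 TPM, and the lowest were 2810006K23Rik at 7.83 ± 0.601 TPM and Taco1 at 4.33 ± 0.431 TPM (SD, n = 2 for each). For 25 genes of ribosome assembly and ribosomal RNA modification it was 21.3 TPM in replicate 2 and 23.4 TPM in replicate 1, with Mettl17 (63.5 ± 7.45 TPM), Dhx30 (56.6 ± 3.95 TPM) and Ngrn (55.4 ± 2.38 TPM) highest and Nsun4 (8.75 ± 0.806 TPM) and Mettl15 (8.73 ± 0.375 TPM) lowest. For 14 genes of mitochondrial transcription and RNA stability it was 23.2 TPM in replicate 2 and 20.1 TPM in replicate 1. Among these Slirp, an RNA-binding partner of Lrpprc, reached 176.2 ± 27.0 TPM, Lrpprc 40.8 ± 0.820 TPM and Tfam, which packages mitochondrial DNA, 35.3 ± 0.233 TPM, while Esrra (4.54 ± 0.361 TPM) and Ppargc1b (3.68 ± 0.304 TPM) were lowest. For 17 mitochondrial aminoacyl-tRNA synthetases the median was 17.0 TPM in replicate 2 and 14.3 TPM in replicate 1. Lars2 stood far above the other synthetases, with 928.8 TPM in replicate 2 and 931.5 TPM in replicate 1. It held 68646 expected counts in replicate 2 and 75313 in replicate 1, against 1115 and 1207 for Rars2. Whether all these reads come from Lars2 transcripts was not tested. Next came Rars2 at 38.6 ± 2.33 TPM and Hars2 at 33.1 ± 2.04 TPM, and last Wars2 at 3.89 ± 0.410 TPM and Mars2 at 2.95 ± 0.325 TPM (SD, n = 2 for each).

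The cytosolic ribosome and the respiratory chain had higher median levels. The median of 83 cytosolic ribosomal protein genes was 405.4 TPM in replicate 2 and 495.3 TPM in replicate 1, which is 5.71 and 7.18 times the mitochondrial median in the same libraries. The median of 81 nuclear-encoded respiratory chain subunits was 356.3 TPM in replicate 2 and 392.0 TPM in replicate 1, or 5.02 and 5.68 times the mitochondrial median.

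**Figure D3:**
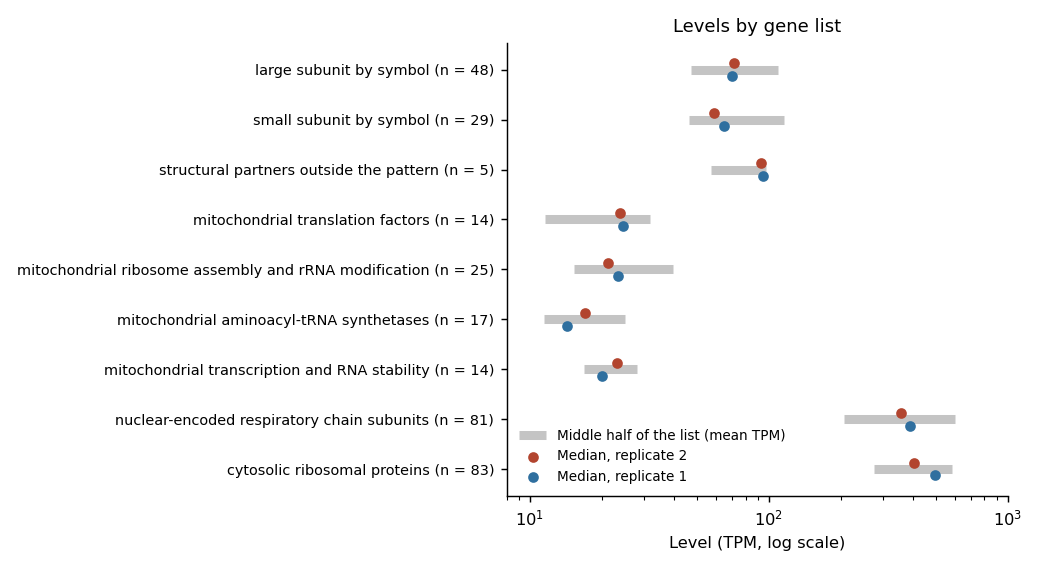
Level by gene list (horizontal axis, TPM on a log scale): medians in replicate 2 (red) and replicate 1 (blue) over the middle 50% of each list by mean TPM (grey bar). The large and small subunits, with medians of 71.8 and 58.8 TPM in replicate 2, lie above the 4 lists of mitochondrial gene expression factors and below the respiratory chain and cytosolic ribosomal lists.

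The replicates were compared with an exact two-sided binomial test of rounded expected counts, relative to the sum over genes in each library, and p-values were adjusted over 17664 genes by Benjamini-Hochberg. It asks only whether 2 libraries differ by more than counting noise. Of all genes tested 33.9% passed at an adjusted p under 0.05, 15.6% higher in replicate 2 and 18.3% lower in replicate 2. Of the 77 members 33 passed (42.9%), 2 higher and 31 lower in replicate 2. In the large subunit 22 of 48 passed, 2 higher and 20 lower, and in the small subunit 11 of 29, all lower. The split was 2 higher and 30 lower with TMM factors and 3 higher and 30 lower with DESeq2 size factors. With spike-in totals, a single factor that moves every gene alike, 29 members passed (37.7%), 14 higher and 15 lower, against 43.2% of all genes. With gene totals and a mean count of at least 100, 34 members passed (44.2%), against 41.1% of all genes. On the main setting 4049 of 9138 protein-coding genes with at least 10 TPM passed, 2154 higher and 1895 lower in replicate 2. The direction of the calls therefore depends on the scale, and the order of the shares on the scale and on the genes compared. Deposited TPM credibility intervals were separate between replicates for 17 members (22.1%), against 22.6% of all genes tested. Among 9138 protein-coding genes with at least 10 TPM they were separate for 3022, a larger share than in the members. Intervals of the deposited FPKM were separate for 31 members (40.3%), against 20.0% of all genes tested.

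The differences were small. By TPM the largest was that of Mrps33, with 135.6 TPM in replicate 2 and 175.0 TPM in replicate 1. Its log2 ratio was -0.37, with an adjusted p of 1.8e-10 in the binomial test. Mrpl52 had a log2 ratio of -0.33, Mrpl17 of -0.31 and Mrpl18 of -0.26, and all passed the test. At the other end Mrpl50, with 72.5 TPM in replicate 2 and 61.0 TPM in replicate 1, had a log2 ratio of 0.25 and an adjusted p of 6.0e-05 in the binomial test, and Mrpl45 had a log2 ratio of 0.21 and an adjusted p of 0.033. Mrps9 and Mrps25 had log2 ratios of TPM + 1 of 0.25 and 0.22 and did not pass, with adjusted p-values of 0.11 and 0.96 in the binomial test. The test reads counts and not TPM, and by scaled counts their log2 ratios were 0.16 and 0.0071; the deposited length of Mrps25 was 2028 nt in replicate 2 and 2224 nt in replicate 1. By TPM only 3 members (3.90%) differed by more than 1.2-fold, against 13.4% of 9534 genes with at least 10 TPM. By scaled counts more members did, and the share of all genes on that scale is not given here. The log2 ratios by scaled counts were -0.41 for Mrpl52, -0.39 for Mrpl17, -0.34 for Mrpl34 and -0.31 for Mrps33. The median log2 ratio of TPM was -0.03 for the members and 0.05 for all genes with at least 1 TPM. With spike-in scaled counts the median of the members was 0.02 and that of all genes 0.11. The medians of the large and small subunit ratios differed by 0.01, and by -0.07 when only coding transcripts were summed.

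The replicate difference went with transcript length. Among 20 members shorter than 750 nt the median log2 ratio was -0.17, and 18 had lower TPM in replicate 2. Among 39 members of 750 to 1500 nt it was -0.03, and among 18 longer members 0.07, with 15 of them at higher TPM in replicate 2. The positive median of the longer members holds for TPM; by counts scaled to gene totals it was -0.0026, and the test called 2 of them higher and 2 lower. Protein-coding genes with at least 10 TPM showed the same order, with medians of -0.15, -0.01 and 0.09 in the 3 length classes. Across members the log2 ratio and log2 length had Pearson's r of 0.596 and Spearman's rho of 0.643 (n = 77 genes), against 0.267 and 0.256 for 9138 protein-coding genes. Length also went with level, at r = -0.792 and rho = -0.768 across members, and -0.402 and -0.356 across protein-coding genes. TPM is itself divided by length, so level and length are not separate measures here. Genes are not independent replicates, so these are descriptions. Median length was 1007 nt for the members and 1556 to 2302 nt for the 4 lists of mitochondrial gene expression factors. It was 683 nt for the cytosolic ribosomal proteins and 666 nt for the respiratory chain subunits. Within the small subunit by place it was 881 nt with a bacterial counterpart and 1228 nt for mitochondria-specific proteins. The part of length in the level differences between these lists was not tested. The cytosolic ribosomal proteins, mostly short, had a median log2 ratio of -0.20, with 1 of 80 tested genes higher and 77 lower in replicate 2, and the respiratory chain subunits had -0.09, with 7 of 80 higher and 61 lower. Of the smaller lists, the binomial test called 0 higher and 3 lower of the 5 structural partners, 1 and 3 of the translation factors, 1 and 5 of the assembly genes, 2 and 1 of the synthetases, 2 and 2 of the transcription and stability genes, and 0 and 2 of the ribosomal RNAs. The lower call of Mettl17, an assembly gene, is by counts and runs against its TPM, 68.8 in replicate 2 and 58.2 in replicate 1. The libraries also differed in other tissue markers: Ttr, of the choroid plexus, had 1094 TPM in replicate 2 and 1825 TPM in replicate 1, and the 2 listed globin genes summed to 5476 TPM in replicate 2 and 4482 TPM in replicate 1. The part of length and of these tissues in the member differences was not tested.

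**Figure D4:**
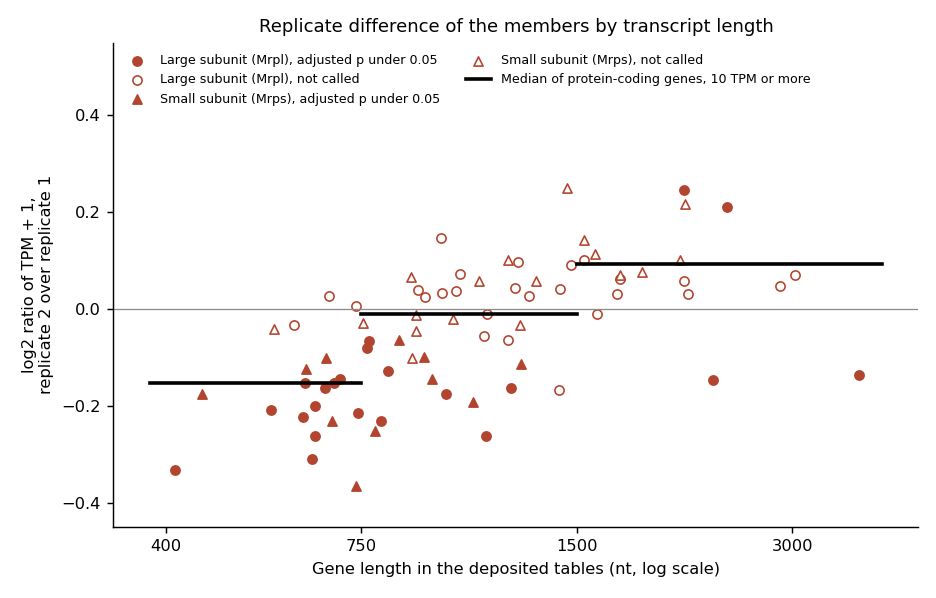
Log2 ratio of TPM + 1, replicate 2 over replicate 1 (vertical axis), against gene length (horizontal axis, nt on a log scale) for large-subunit genes (circles) and small-subunit genes (triangles), filled where the adjusted p was under 0.05; black lines are medians of protein-coding genes with at least 10 TPM. Of 20 members shorter than 750 nt 18 lie below 0, and of 18 members of 1500 nt or longer 15 lie above it.

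In most members most of the TPM lay on coding transcripts, but not in every gene. The members have 275 transcripts in the tables, 148 of them annotated as protein coding. The share of a gene's TPM on coding transcripts had a median of 97.7% in replicate 2 and 96.8% in replicate 1, and 51 members had at least 90%. In 13 of 77 members (16.9%) the share was under 50%, 8 of 48 in the large and 5 of 29 in the small subunit, against 7.64% of 9138 protein-coding genes with at least 10 TPM. Mrpl32 has a single transcript, annotated for nonsense-mediated decay, and so a coding share of 0%. Mrps26 had a coding share of 6.73% in replicate 2 and 5.56% in replicate 1. Its Mrps26-201, annotated as a retained intron and 1057 nt long, held 72.6 TPM in replicate 2 and 79.6 TPM in replicate 1, while the coding Mrps26-202, 4278 nt long, held 5.24 TPM in replicate 2 and 4.69 TPM in replicate 1. Mrps24 had 8.86% in replicate 2 and 8.64% in replicate 1, and Mrpl51 had 8.79% in replicate 2 and 10.6% in replicate 1. In each of the 12 other genes, which have a coding transcript, the main coding transcript was longer than the main transcript, with median lengths of 2525 and 715 nt. The main transcript was coding in 63 members, and it was the same one in both replicates in 75 of 77. Its share moved most in Mrpl1, to 85.9% in replicate 2, against 71.0% in replicate 1, and in Mrpl2, to 83.8% in replicate 2, against 95.5% in replicate 1. Mrps10-203 held 45.8% of Mrps10 in replicate 2 and 34.4% in replicate 1, and Mrpl18-201 held 92.4% of Mrpl18 in replicate 2 and 84.0% in replicate 1. Annotated types come from a later annotation release, and the cause of the low coding shares was not tested.

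**Figure D5:**
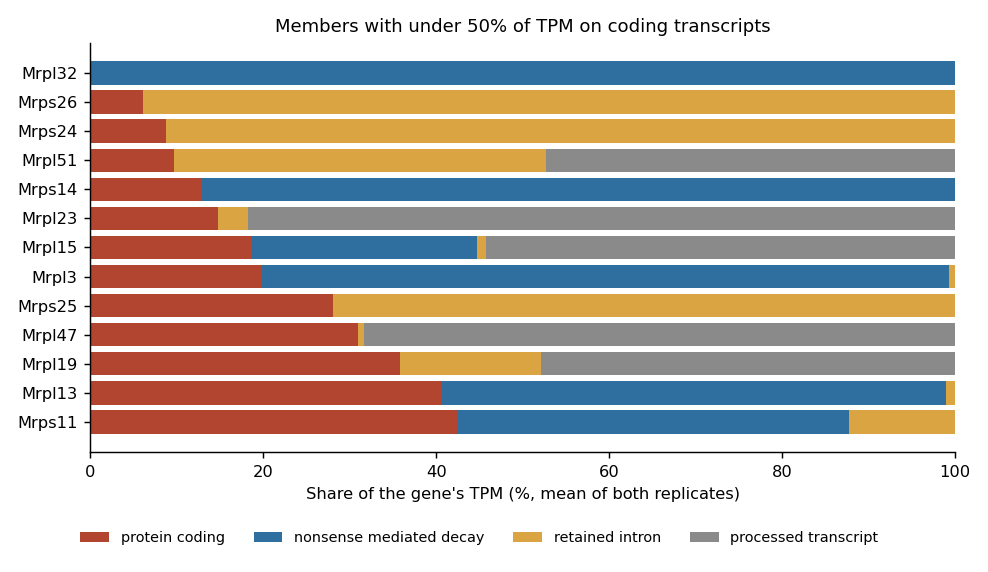
Share of each gene's TPM (horizontal axis, percent, mean of both replicates) by annotated transcript type for the 13 members with under 50% on coding transcripts. The coding share (red) is 0% in Mrpl32 and is largest in Mrps11.

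Copies of the members were also listed in the tables. The processed pseudogene Mrpl23-ps1 had 103.6 TPM in replicate 2 and 106.9 TPM in replicate 1, above its parent Mrpl23 with 49.8 TPM in replicate 2 and 57.7 TPM in replicate 1. The credibility bounds of Mrpl23 were wide, 35.6 to 66.5 TPM in replicate 2 and 40.9 to 72.5 TPM in replicate 1, so the split of reads between parent and copy is uncertain. The other 4 listed pseudogenes of members stood at 2.62 TPM or lower in both libraries.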

How the data were processed

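The 2 libraries held 33510896 (replicate 2) and 34929425 (replicate 1) expected counts. Reads were assigned by the authors to mm10 with annotation M4, separately for each replicate, per the accompanying descriptions. Not given in the sources used here are the aligner, the quantification tool and the strand setting. Expected counts were deposited without normalisation and estimate the reads of a gene or a transcript. The authors scaled TPM by length over all features of the deposited files, and FPKM by length and total reads. Those features include 96 spike-in sequences (7.72% of TPM in replicate 2 and 8.15% in replicate 1). The credibility bounds, used as score values, were deposited with the authors' estimates, and their level is not stated in the file. Bounds surround a posterior mean, so the TPM can lie outside them. Transcript shares were computed here from TPM, and the deposited percent values were left aside.

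Of 43346 genes, 42462 were given a symbol by their unversioned identifier; symbols, types and coordinates came from GENCODE M21 (GRCm38, the same assembly as mm10), whose models can differ from M4. Log2 values used a pseudocount of 1, which understates changes of low genes. Expected counts were rounded for the exact binomial test, run on 17664 genes with a mean of at least 10. On simulated data (17664 genes, 200 changed) the test called 42% of genes changed by 1.2-fold, 74% at 1.5-fold, 80% at 2-fold, 94% at 4-fold and 0.052% of unchanged genes. Simulated counts vary only by counting noise, which real libraries exceed. The p-values cover counting error between 2 libraries, not the spread between embryos. Named members were the 5 highest and 5 lowest of each subunit, the 4 highest and 4 lowest ratios, the 4 lowest coding shares, the 4 largest changes of main transcript share and genes whose place differs from their symbol. The 3 highest and 2 lowest of each other list were added, with every structural partner and both ribosomal RNAs. Members and lists were chosen with earlier results of these data known. Neighbouring starts, pseudogenes and length classes were described after the values were seen. Alternative scalings used edgeR 4.0.16 (TMM) and DESeq2 1.42.0 size factors. The software was Python 3.11.15 with pandas 2.3.3, scipy 1.17.1, matplotlib 3.10.9 and numpy 2.4.6, and R 4.3.3.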

Additional observations from a re-analysis of the deposited data

How the results depend on the processing

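No paired analysis was possible because both libraries form 1 group. The median member level was 41.8 with FPKM and 68.2 with the posterior mean, against 70.0 TPM. The subunit difference in log2 level was -0.011 with means and 0.0047 with the structural partners added, and its direction therefore depends on these choices; it was 0.216 with the gene holding the Mrpl33 transcript and 0.233 without members of under 50% coding share, both chosen after seeing the data. Of the 33 members called by the binomial test, 0 also differed by 1.5-fold or 2-fold, against 5.72% and 3.02% of all genes; 39 members had an unadjusted p under 0.05 with no minimum fold. FPKM intervals were separate for 31 members, against 20.0% of all genes. In the window of 100 bases before to 50 after the start, E-box letters were found in 2 members (2.94%), against 5.75% of protein-coding genes, and TATA letters in 1 (1.47%), against 7.62%; on the given strand alone ETS letters in 14 members, against 7.45% of protein-coding genes. With single replicates the median level was 69.0 to 71.0 TPM, the subunit difference 0.11 to 0.28, the main transcript share 90.7 to 91.5% and the coding share 96.8 to 97.7%. With 2 libraries, differences smaller than their spread were not detectable.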
